A study of Homo sapiens with 63 samples.

Results

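The 39 genes described here encode chaperones and folding enzymes of the endoplasmic reticulum (ER), the channel through which proteins enter it, the machinery that removes misfolded proteins from it (ER-associated degradation, ERAD) and the sensors of its stress response. They were taken as a list of symbols and make up 39 of the 58336 genes in the deposited tables; all 39 were among the 19352 genes with enough counts to be tested. RNA was measured in HEK293T, an established human embryonic kidney line, made to express the Halo protein tag, to which compounds with a Halo ligand bind. Per the study's design text, cells were loaded for 2 h with 10 µM of a Halo-binding precursor of either drug's acyl glucuronide and, after washing, received light of 365 nm at 5 mW/cm2 for 3 min to release that reactive metabolite. Ibufenac lacks the methyl group that ibuprofen carries next to its carboxylic acid, and was withdrawn for liver toxicity.

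The 63 libraries form 7 arms, each sampled at 6, 12 and 18 h with 3 replicates: ibufenac probe, ibuprofen probe, photocaged ibufenac, photocaged ibuprofen, ibufenac bolus, ibuprofen bolus, and the vehicle DMSO. Every arm, DMSO included, is of Halo-expressing HEK293T. The labels do not say how the probe and photocaged forms differ, which arms received light, the dose of the bolus, or whether replicates were separate cultures, so p-values measure the spread between libraries, which may be technical. These are bulk libraries, in which fewer cells of a type and less RNA per cell cannot be told apart.

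Proteins enter the ER as unfolded chains through the SEC61 channel and are held by the chaperone HSPA5 (BiP), folded with the help of disulfide isomerases and of the lectin chaperones calnexin and calreticulin, and, when folding fails, passed back to the cytosol for ERAD. When unfolded proteins build up, the sensors IRE1 (encoded by ERN1), ATF6 and PERK (EIF2AK3) are set off; ATF6 is cut by the proteases of MBTPS1 and MBTPS2, IRE1 splices XBP1 mRNA, and PERK slows translation and brings about ATF4. ATF6 and XBP1 then drive many chaperone and ERAD genes through short promoter elements, of which the ER stress response element (ERSE) is the best known.

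Those elements were looked for in the promoters of the genes, because the members that carry them can be set beside those that do not. RefSeq promoter windows of GRCh38.p14, from 250 bases before to 50 bases after an annotated start, were at hand for 36 of the 39 genes. Only 1 window per gene was searched, so promoters at other starts of a gene were not covered. The window of DNAJB11 began at chr3:186570470, for example, while the annotated gene began at 186567403. The window of DERL1, PDIA3 and SEC24D was not used here. The letters searched, on both strands, were CCAAT, 9 bases of any kind and CCACG for ERSE; ATTGG, 1 base and CCACG for ERSE-II; TGACGTGG for the XBP1-type core (UPRE); TGATG, 1 base and AA for the ATF4-type element (CARE); and CCACG alone, which is contained in ERSE and ERSE-II and overlaps the UPRE core by shared letters. ERSE was present in 7 of the 36 windows (19.4%), those of HSPA5, HSP90B1, FICD, CALR, CANX, CRELD2 and ERO1B, and in 22 of all 27305 windows (0.0806%). ERSE-II was present in HERPUD1, HYOU1 and SDF2L1 (8.3%) and in 0.0549% of all windows. The UPRE core was in HYOU1 alone among the 36 (2.8%, against 0.795% of all windows), and CARE in HERPUD1 alone (2.8%, against 3.67%). CCACG was in 26 of the 36 (72.2%) and in 37.9% of all windows. The stretches that hold the elements in the genes whose values recur below are shown here 5′ to 3′ on the strand of the gene, with the element in capitals and 15 bases of flank on each side. The HSPA5 stretch lies at chr9:125241376-125241424 (minus strand), FICD at chr12:108515108-108515156 (plus), CALR at chr19:12938369-12938417 (plus), CANX at chr5:179698763-179698811 (plus) and HERPUD1 at chr16:56932010-56932050 (plus). The HYOU1 stretches lie at chr11:119057365-119057408 and chr11:119057259-119057299 (minus), and SDF2L1 at chr22:21642099-21642139 (plus).
HSPA5: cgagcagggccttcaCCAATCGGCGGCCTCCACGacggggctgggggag
FICD: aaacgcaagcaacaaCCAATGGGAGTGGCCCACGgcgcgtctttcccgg
CALR: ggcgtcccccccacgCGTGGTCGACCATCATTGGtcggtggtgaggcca
CANX: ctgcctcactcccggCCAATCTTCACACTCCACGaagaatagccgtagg
HERPUD1: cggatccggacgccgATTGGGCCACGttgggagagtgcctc
HYOU1, far element: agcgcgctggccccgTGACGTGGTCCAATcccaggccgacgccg
HYOU1, near element: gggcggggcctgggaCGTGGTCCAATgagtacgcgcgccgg
SDF2L1: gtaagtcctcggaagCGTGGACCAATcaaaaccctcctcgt
In CALR, HYOU1 and SDF2L1 the element reads on the opposite strand, so that CGTGG comes first. The far element of HYOU1 is a UPRE core that shares its last 5 bases, CGTGG, with an ERSE-II. A match of letters describes the window and says nothing on whether a factor binds there in these cells.

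**Figure D1:**
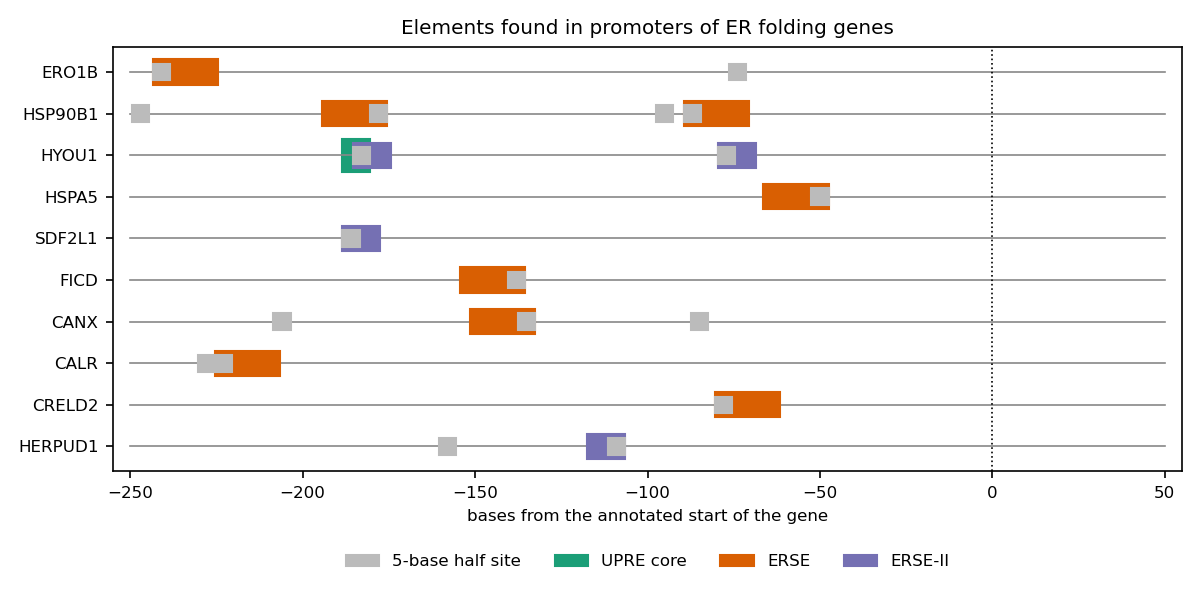
Position of the promoter elements in the 10 members with an ERSE or ERSE-II, in bases from the annotated gene start (x axis, 0 is the start); each row is a gene and each mark an element, coloured by kind, with CCACG alone in grey. The ERSE of HSPA5 spans 66 to 48 bases before the start and the ERSE-II of HERPUD1 117 to 107 bases before it, while the element of ERO1B lies farthest upstream, from 243 bases before the start.

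Levels of the 39 genes were compared on the deposited FPKM scale (fragments scaled to transcript length and library depth). In DMSO the median over 9 libraries was highest for the lectin chaperone CANX (390 FPKM), then for HSP90B1 (177), CALR (162), SSR2 (134) and SEC61G (128). HSPA5 ranked 19th, at 31.6 FPKM. The lowest were ERN1 (4.22 FPKM), DNAJB9 (3.97), WFS1 (3.50) and FICD (2.55). The spread between replicates differed between genes: pooled over the 21 groups, the SD of log2 CPM (counts scaled to library size, TMM-normalised) was 0.07 for CANX, PDIA6, SEL1L and MBTPS1, 0.18 for HSPA5 and SEC24D, 0.27 for FICD and 0.36 for SDF2L1, whose exons have the highest GC content of the group (65.5%). Neighbours in the order of FPKM, such as CALR (113 to 185 FPKM over the 9 DMSO libraries) and SSR2 (115 to 153), overlapped.

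The smallest library held 12.1 M counts (M, mega), the largest 38.4 M and the median library 19.6 M. VIM, ZIC2 and NEFM, markers of HEK293T, were present in every library (VIM 168 to 284 FPKM, ZIC2 2.97 to 9.18, NEFM 2.57 to 26.1), LHX1 was low (0.0643 to 1.53) and PAX2 was at or near 0 (at most 0.702). Of 9 markers of hepatocytes, blood, fibroblasts and beta cells, INS was at 0 throughout. The highest was COL1A1, at 0.217 to 3.18 FPKM (median 1.29). The medians of COL1A1 and ALB (0.661) were above those of LHX1 (0.565) and PAX2 (0.0468). Replicate 3 of the ibufenac bolus at 6 h stood apart from its group, with 252 CPM of HSPA5, 29.3 of SEC24D and 251 of SSR1, against 143 and 137, 17.6 and 18.6, and 149 and 137 CPM in its other libraries. The 8 libraries that correlated least with their groups (median r of 0.955 to 0.962) were the 3 of the ibufenac bolus at 6 h, the 3 of DMSO at 18 h and replicate 3 of the ibufenac probe at 6 h and at 12 h.

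Averaged over the 3 times, many of the ER genes were higher than in DMSO with photocaged ibufenac and some with the ibufenac probe, a few were higher with either ibuprofen form, and no member fell. Rises, falls and calls stand for an adjusted p under 0.05 (edgeR's quasi-likelihood test, Benjamini-Hochberg over all 19352 genes within each comparison, two-sided), and fold changes are log2 values with their SE. With photocaged ibufenac 23 of 39 rose (7.49% of all tested genes were called), with the ibufenac probe 17 rose (13.2% of all genes), with photocaged ibuprofen 6 rose (4.28%) and with the ibuprofen probe 4 rose (8.43%). The median log2 change over the 39 was 0.17, 0.11, 0.07 and 0.03 in that order, and over all genes it was between -0.01 and 0.00. The share called with the ibuprofen probe was near that over all genes. The changes were small: the largest average was 0.56 ± 0.08 for DNAJB9 with the ibufenac probe (adjusted p = 9.03e-07). All arms were set against the same 9 DMSO libraries, so these comparisons are not independent of each other. The counts for photocaged ibufenac ranged from 17 to 23 and for the ibufenac probe from 14 to 17 when any 1 library was left out. For the ibuprofen probe the count fell to 1 without DMSO 6 h replicate 2 or 3, DMSO 18 h replicate 1, ibuprofen probe 6 h replicate 1 or ibuprofen probe 12 h replicate 3. It fell to 2 without any 1 of the 12 h DMSO libraries, ibuprofen probe 12 h replicate 1 or 2 or ibuprofen probe 18 h replicate 1 or 2, it rose to 6 without DMSO 18 h replicate 3, and ATF6 was its only call that held in every fit that left out 1 library.

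Since the 18 h DMSO libraries enter every average against DMSO, the averages were also taken over 6 and 12 h alone. Of all averaged calls, 18 were then lost. They include PDIA4 for ibufenac over ibuprofen in the probe form and DERL2 for the ibufenac forms, comparisons without any DMSO library. With photocaged ibufenac 16 members then rose, and ATF6, ERO1B, HSP90B1, SEL1L, PDIA3, DERL2 and MBTPS2 were no longer called (adjusted p from 0.104 to 0.384). With the ibufenac probe 16 rose and 1 fell, and CANX was lost (0.04, adjusted p = 0.596). With photocaged ibuprofen 5 rose, and SELENOK (adjusted p = 0.069), SSR3 (0.0828), DNAJB9 (0.244) and MBTPS2 (0.472) were lost. With the ibuprofen probe none of the 4 was left (adjusted p from 0.151 to 0.529), and with GC and length trends removed 0 rose and 1 fell.

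**Figure D2:**
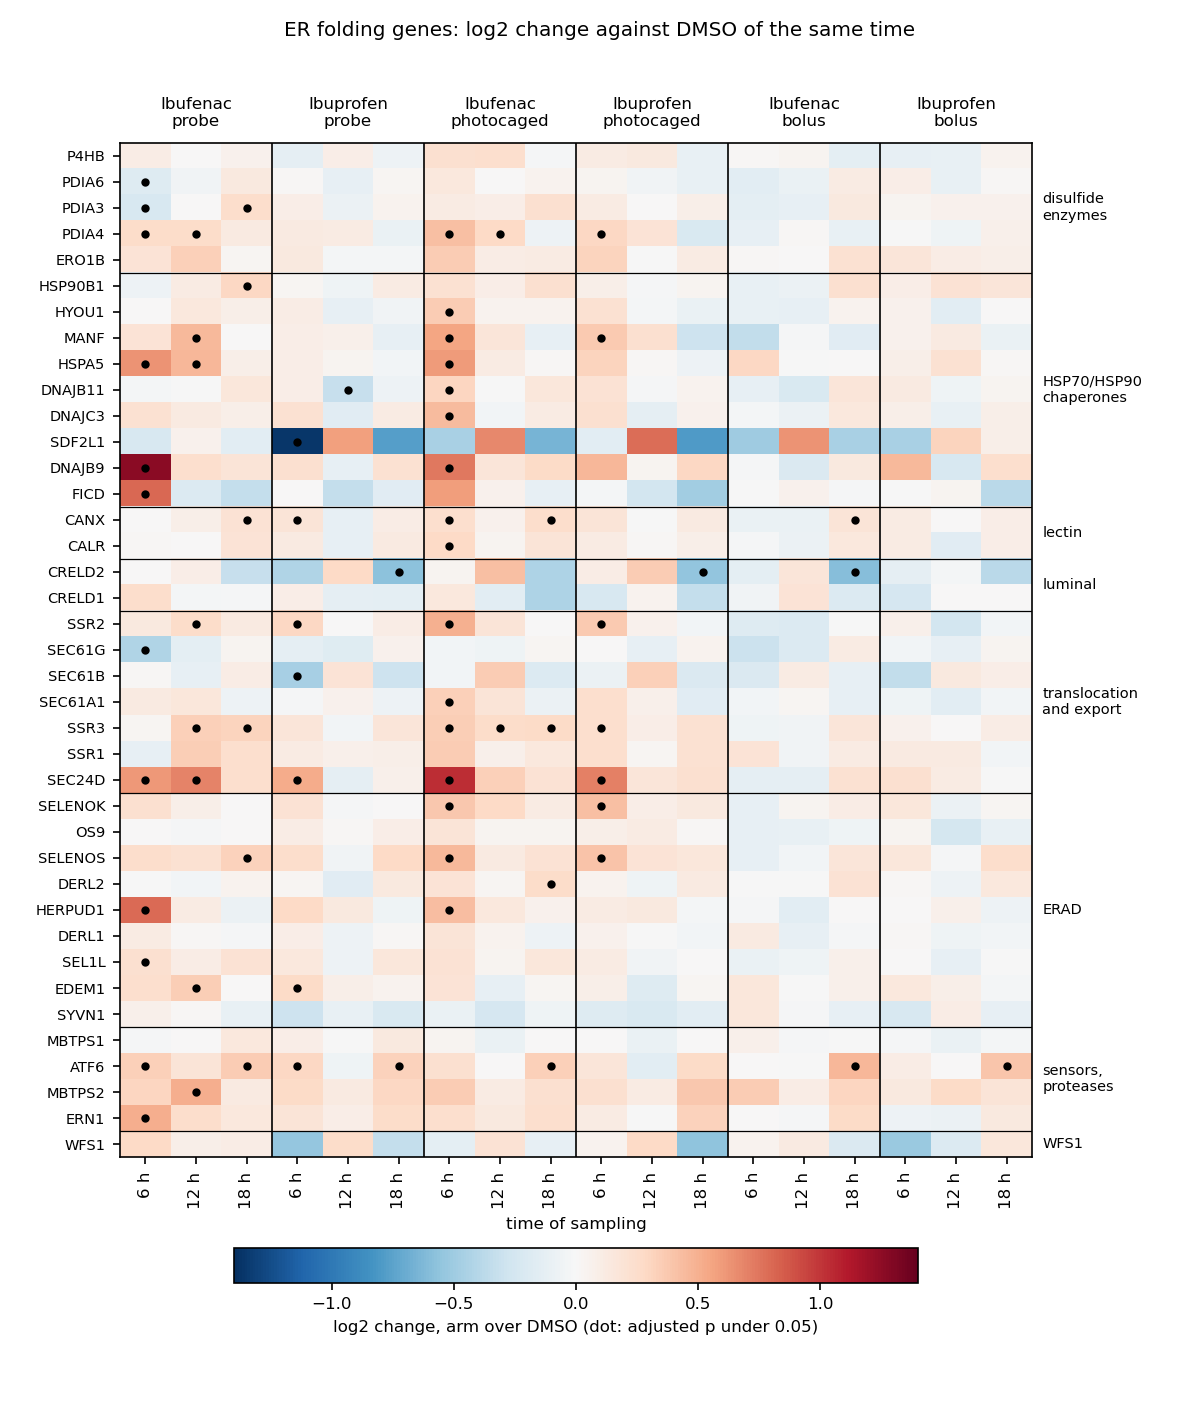
Log2 change of the 39 genes (rows, grouped by role) against DMSO in each arm and time (columns), from blue (lower) to red (higher), with a black dot where the adjusted p is under 0.05. The dots gather in the 6 h columns of the ibufenac probe (12 genes) and photocaged ibufenac (16 genes), and few stand in the bolus columns.

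At 6 h 16 of 39 genes rose with photocaged ibufenac and none fell (3.03% of all genes called), whereas the ibufenac probe had 9 members up and 3 down (12.7% of all genes). With photocaged ibuprofen 7 rose (0.992%), and with the ibuprofen probe 5 rose and 2 fell (11.4%). The count for photocaged ibufenac ran from 11 without DMSO replicate 2 to 21 without photocaged ibufenac replicate 3, and that for the ibufenac probe from 9 to 12. Without a single library the count for photocaged ibuprofen was 1 (DMSO replicate 2 or photocaged ibuprofen replicate 2), 2 (DMSO replicate 3) or 4 (photocaged ibuprofen replicate 1). For the ibuprofen probe it was 1 (DMSO replicate 2 or 3), 3 (ibuprofen probe replicate 1) or 2 (ibuprofen probe replicate 2).

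Among the HSP70 and HSP90 chaperones and their partners, 6 of 9 rose at 6 h with photocaged ibufenac (3.03% of all genes called). With the ibufenac probe 3 rose (12.7%), and with photocaged ibuprofen 1, MANF, rose (0.992%). HSPA5, the ER's HSP70, had 242, 207 and 223 CPM with the ibufenac probe, 157, 161 and 144 with the ibuprofen probe, 209, 229 and 219 with photocaged ibufenac and 182, 174 and 182 with photocaged ibuprofen, against 146, 134 and 155 CPM in DMSO. All 6 libraries of the ibufenac forms and all 3 of photocaged ibuprofen lay above the DMSO libraries, and those of the ibuprofen probe overlapped them. The log2 change was 0.63 ± 0.14 for the ibufenac probe (adjusted p = 0.000889) and 0.60 ± 0.14 for photocaged ibufenac (adjusted p = 0.00612; 0.0569 without DMSO replicate 2).

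DNAJB9 (ERdj4), a J-domain partner of HSPA5 and a known XBP1 target, had the largest rise with the ibufenac probe. It had 26.2, 24.5 and 22.1 CPM at 6 h with the ibufenac probe, 9.04, 14.1 and 12.0 with the ibuprofen probe, 16.6, 18.6 and 15.4 with photocaged ibufenac and 12.9, 14.3 and 14.6 with photocaged ibuprofen, against 10.2, 10.0 and 10.1 in DMSO. Every library of the ibufenac probe was above every library of the other arms. Its log2 change was 1.26 ± 0.14 for the ibufenac probe (adjusted p = 2.91e-09) and 0.74 ± 0.14 for photocaged ibufenac (adjusted p = 0.000687), and both calls held without any 1 library. Averaged over the times DNAJB9 also rose with photocaged ibuprofen, by 0.27 ± 0.08 (adjusted p = 0.0456), a call lost in 15 of 18 fits that left out 1 library and when GC and length trends were removed (0.19, adjusted p = 0.177).

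FICD, which attaches AMP to HSPA5 and so sets its activity, rose with the ibufenac probe, to 11.8, 12.7 and 10.6 CPM against 6.92, 6.80 and 6.38 in DMSO (log2 change 0.80 ± 0.22, adjusted p = 0.0108). With photocaged ibufenac its libraries ran from 7.78 to 12.0 CPM, all above DMSO, with no call. MANF, a small secreted protein that binds HSPA5, had 86.9, 75.4 and 69.3 CPM with photocaged ibufenac and 70.8, 73.1 and 61.6 with photocaged ibuprofen, against 57.7, 48.4 and 52.5 in DMSO, without overlap (0.55 ± 0.09, adjusted p = 0.000144, and 0.37 ± 0.09, adjusted p = 0.0324). The second of these calls was lost without DMSO replicate 2 (0.243) or 3 (0.132) or without photocaged ibuprofen replicate 1 (0.138) or 2 (0.191), and when GC and length trends were removed (0.35, adjusted p = 0.07).

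HYOU1 (GRP170), which exchanges the nucleotide of HSPA5, and DNAJC3 (p58IPK), another J-domain partner, rose with photocaged ibufenac at 6 h by 0.36 ± 0.07 (adjusted p = 0.000449) and 0.44 ± 0.08 (adjusted p = 0.000254). DNAJB11 (ERdj3) rose by 0.30 ± 0.09 (adjusted p = 0.0417), a call lost without any 1 of 4 libraries (DMSO replicate 2 or 3, photocaged ibufenac replicate 1 or 2; adjusted p from 0.0904 to 0.26) and when GC and length trends were removed (0.24, adjusted p = 0.08). HSP90B1 (GRP94), the ER's HSP90, had 664, 620 and 586 CPM with photocaged ibufenac against 562, 505 and 554 in DMSO, without overlap and without a call at 6 h; averaged over the times it rose by 0.17 ± 0.05 (adjusted p = 0.0118), a call lost without the 18 h samples (0.14, adjusted p = 0.194).

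SDF2L1, a partner of DNAJB11, was the noisiest member. With the ibuprofen probe at 6 h it had 3.33, 3.53 and 4.20 CPM, against 9.31, 8.08 and 10.9 in DMSO, a fall of 1.36 on the log2 scale (SE 0.30, adjusted p = 0.00331). With photocaged ibufenac its libraries were 3.49, 6.95 and 10.5 CPM. When trends of the fold changes with GC content and length were removed, the change with the ibuprofen probe was -0.72 and the call was lost (adjusted p = 0.0788).

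**Figure D3:**
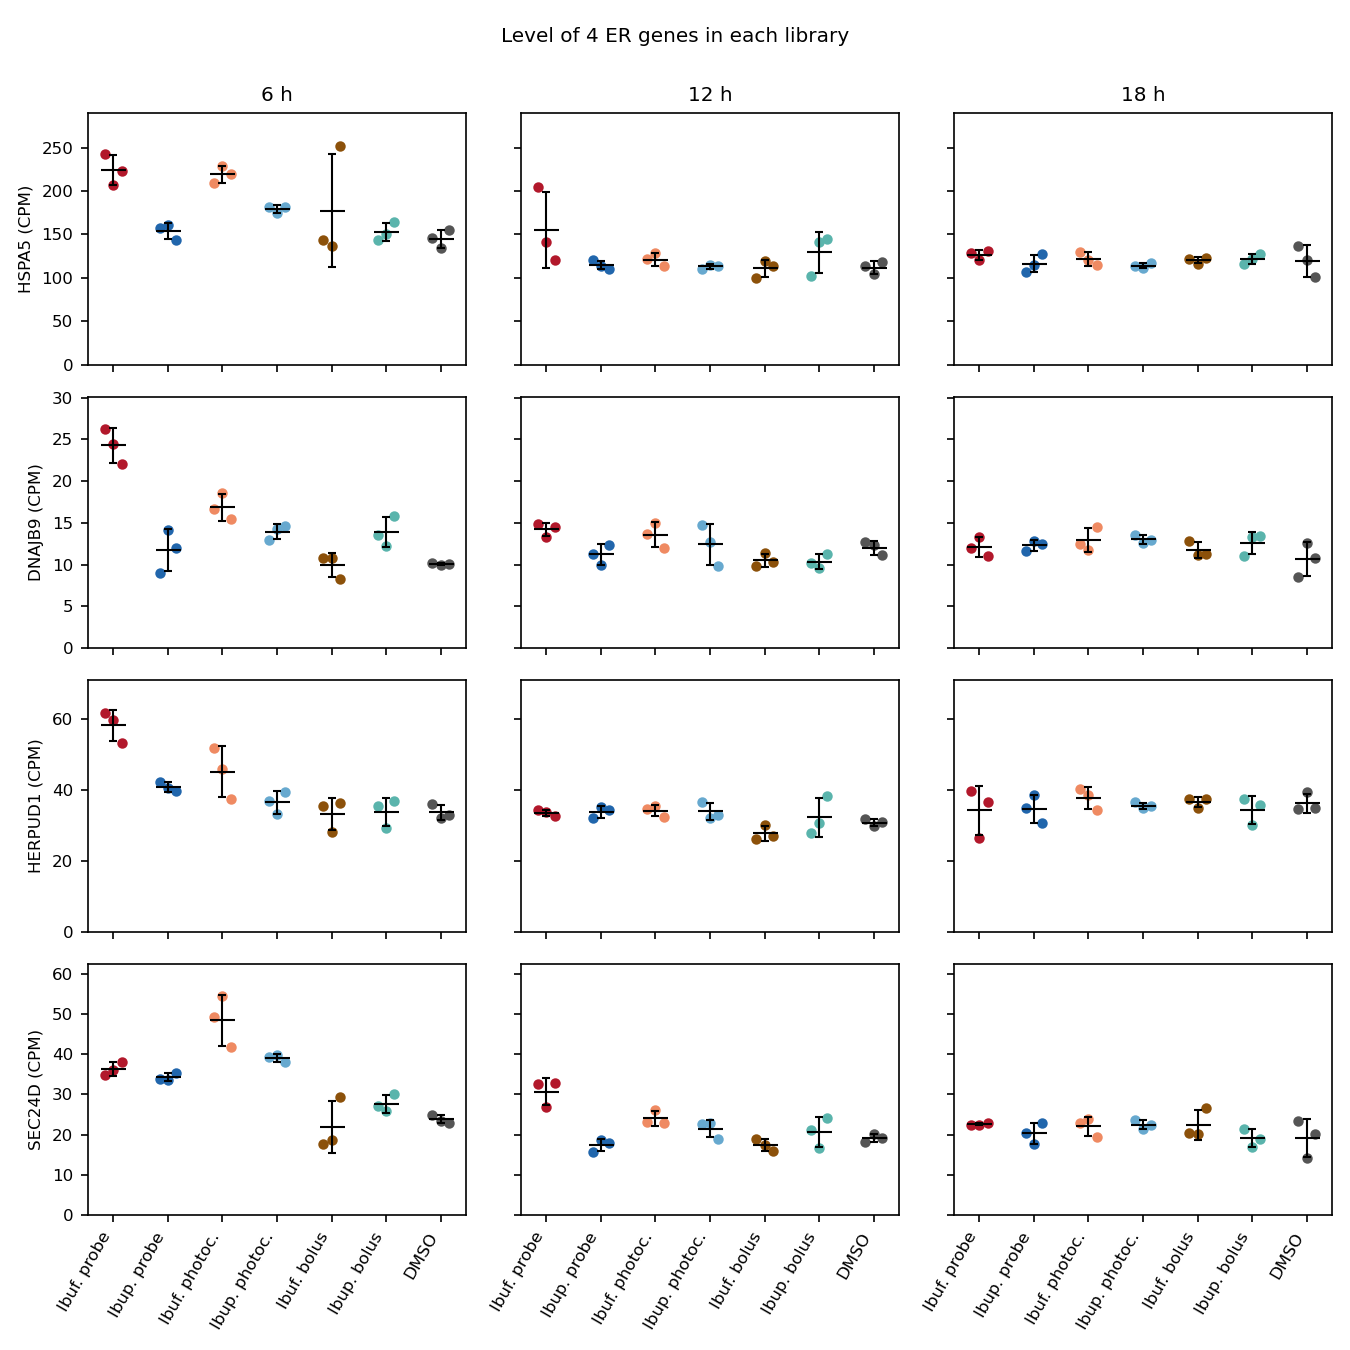
CPM of HSPA5, DNAJB9, HERPUD1 and SEC24D in each library (points) with the mean and SD of 3 replicates (bars), by arm and time. At 6 h the ibufenac probe libraries of DNAJB9 (22.1 to 26.2 CPM) and HERPUD1 (53.2 to 61.6 CPM) stand above all others, while SEC24D is highest with photocaged ibufenac (41.7 to 54.4 CPM).

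The disulfide enzymes, which form and shuffle the cysteine bonds of folding proteins, moved in different directions at 6 h. PDIA4 (ERp72) had 261, 285 and 306 CPM with the ibufenac probe, 317, 301 and 337 with photocaged ibufenac and 291, 299 and 282 with photocaged ibuprofen, against 235, 231 and 247 in DMSO, with no overlap between any of these and DMSO. Its rises were 0.26 ± 0.07 (adjusted p = 0.0106; 0.0567 without ibufenac probe replicate 3), 0.42 ± 0.07 (adjusted p = 0.000137) and 0.29 ± 0.07 (adjusted p = 0.03; lost without any 1 of the 6 libraries compared). PDIA3 (ERp57), which works on glycoproteins together with calnexin and calreticulin, had 177, 162 and 178 CPM with the ibufenac probe against 211, 192 and 199 in DMSO, a fall of 0.22 (SE 0.07, adjusted p = 0.036). PDIA6 fell by 0.18 in the same comparison (SE 0.06, adjusted p = 0.0355).

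Those 2 falls did not withstand other settings. With GC and length trends removed, PDIA3 gave -0.13 (adjusted p = 0.217) and PDIA6 -0.09 (adjusted p = 0.4), and each was lost in 4 of 6 fits that left out 1 library: PDIA3 without DMSO replicate 1 or 3 or ibufenac probe replicate 2 or 3, PDIA6 without DMSO replicate 1 or 3 or ibufenac probe replicate 1 or 3. Averaged over the times, PDIA4 and ERO1B, an oxidase that recharges the isomerases, rose with the ibufenac probe (0.22 ± 0.04 and 0.18 ± 0.06). PDIA4, PDIA3, ERO1B and P4HB, the founding disulfide isomerase, rose with photocaged ibufenac (0.21, 0.14, 0.19 and 0.15). The ERO1B calls were lost in 9 of 18 and 13 of 18 fits without 1 library, PDIA3 in 6 and P4HB in 3, and with photocaged ibufenac ERO1B (adjusted p = 0.182) and PDIA3 (adjusted p = 0.289) were also lost when GC and length trends were removed.

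The lectin chaperones both rose with photocaged ibufenac at 6 h, and CANX with the ibuprofen probe as well. CANX (calnexin) had 1957, 1714 and 1602 CPM at 6 h with photocaged ibufenac, against 1536, 1434 and 1482 in DMSO, and CALR (calreticulin) had 455, 380 and 387, against 352, 330 and 327. Neither overlapped DMSO, and the rises were 0.24 ± 0.06 (adjusted p = 0.00697) and 0.28 ± 0.06 (adjusted p = 0.00711). With the ibuprofen probe CANX had 1660, 1708 and 1675 CPM, also above DMSO (0.18 ± 0.06, adjusted p = 0.0301), a call lost without DMSO replicate 2 or 3 or ibuprofen probe replicate 1 or 2 (adjusted p from 0.0697 to 0.147) and when GC and length trends were removed (0.07, adjusted p = 0.461). With photocaged ibufenac CANX was lost without DMSO replicate 2 (0.0634) or photocaged ibufenac replicate 1 (0.197), and CALR without DMSO replicate 3 (0.0541) or photocaged ibufenac replicate 1 (0.18). Over all times CANX rose by 0.19 ± 0.03 with photocaged ibufenac (adjusted p = 9.4e-05), a call that no single library removed, and by 0.09 ± 0.03 with the ibufenac probe (adjusted p = 0.0481), which was lost in 12 of 18 such fits.

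Of the 7 genes of translocation and export, SEC24D rose in all 4 probe and photocaged arms at 6 h. It encodes an adaptor of the COPII coat that packs cargo into vesicles leaving the ER. It had 34.8, 36.2 and 38.1 CPM with the ibufenac probe, 33.8, 33.6 and 35.4 with the ibuprofen probe, 49.3, 54.4 and 41.7 with photocaged ibufenac and 39.3, 39.9 and 38.0 with photocaged ibuprofen, against 24.9, 23.5 and 23.0 in DMSO. No library of these 4 arms overlapped DMSO. The log2 changes were 0.61 ± 0.14, 0.52 ± 0.14, 1.03 ± 0.14 and 0.71 ± 0.14 in that order (adjusted p = 0.00184, 0.0117, 2.41e-06 and 0.00555); the second was lost without DMSO replicate 2 (0.0539) or 3 (0.0587) or ibuprofen probe replicate 2 (0.0509), and the other calls held without any 1 library.

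SSR2 and SSR3, subunits of the translocon-associated complex that sits beside the channel, rose as well. SSR2 had 258, 222 and 211 CPM with photocaged ibufenac and 205, 217 and 209 with photocaged ibuprofen, against 176, 161 and 154 in DMSO (0.50 ± 0.08, adjusted p = 2.3e-05, and 0.37 ± 0.08, adjusted p = 0.00931), with no overlap. The second call was lost without DMSO replicate 2 (0.063) or 3 (0.0803) or photocaged ibuprofen replicate 2 (0.0648). SSR3 had 292, 275 and 233 CPM with photocaged ibufenac, against 220, 209 and 203 (0.34 ± 0.06, adjusted p = 0.000675). Over the 3 times SSR3 rose with photocaged ibufenac (0.29 ± 0.04, adjusted p = 3.4e-07), the ibufenac probe (0.22 ± 0.04, adjusted p = 1.83e-05) and photocaged ibuprofen (0.18 ± 0.04, adjusted p = 0.00201), and these 3 calls held without any 1 library; the third was lost without the 18 h samples (0.16, adjusted p = 0.0828).

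The channel subunits differed from each other. SEC61A1, the pore, had 339, 353 and 389 CPM with photocaged ibufenac, against 290, 295 and 273 in DMSO (0.33 ± 0.07, adjusted p = 0.0027). SEC61G, a small subunit, had 52.6, 51.5 and 43.2 CPM with the ibufenac probe, against 68.9, 59.6 and 69.0, and fell by 0.42 (SE 0.11, adjusted p = 0.00862), a call lost without ibufenac probe replicate 3 (0.127) and when GC and length trends were removed (-0.29, adjusted p = 0.126). SEC61B, the other small subunit, had 39.4, 38.2 and 53.2 CPM with the ibuprofen probe, against 47.9, 64.7 and 66.7, and fell by 0.46 (SE 0.14, adjusted p = 0.0268). These libraries overlapped, and the SEC61B call was lost without DMSO replicate 2 or 3 or ibuprofen probe replicate 1 or 2 (adjusted p from 0.131 to 0.183).

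**Figure D4:**
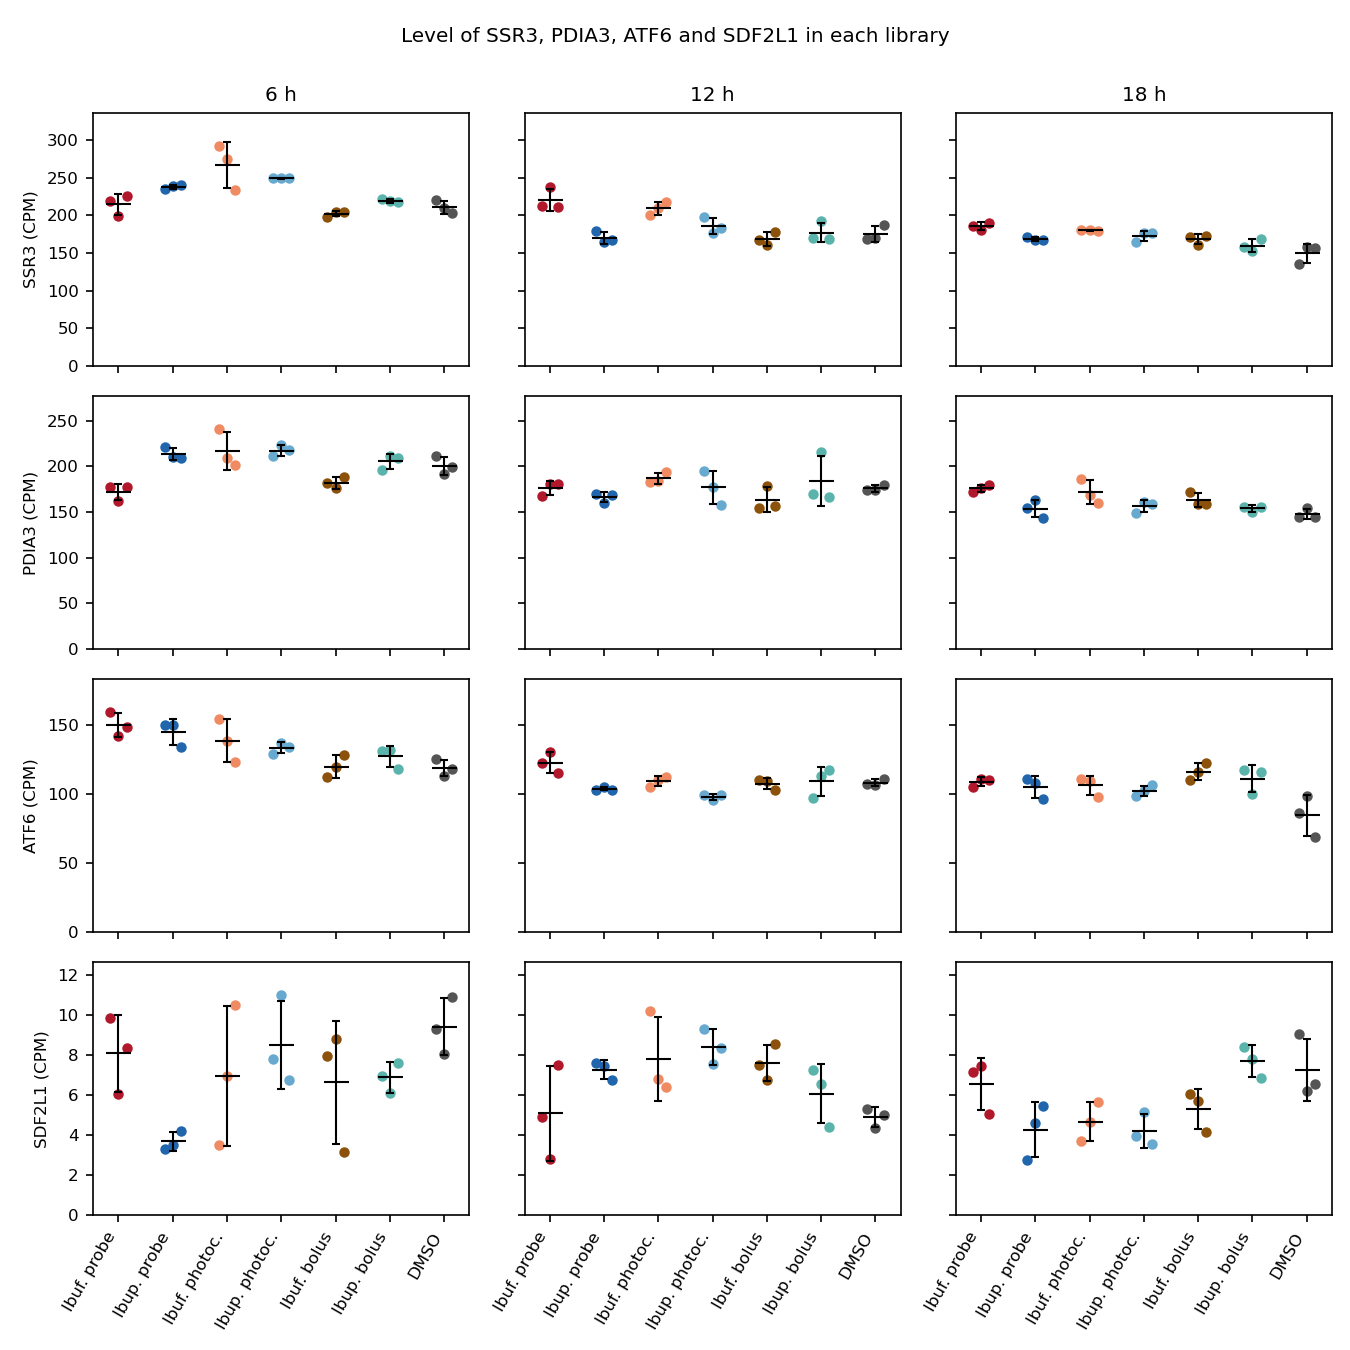
CPM of SSR3, PDIA3, ATF6 and SDF2L1 in each library (points) with the mean and SD of 3 replicates (bars), by arm and time. SSR3 reaches 292 CPM with photocaged ibufenac at 6 h, PDIA3 stands at 162 to 178 CPM with the ibufenac probe at 6 h, below its DMSO libraries, and the 18 h DMSO libraries of ATF6 spread from 68.8 to 98.3 CPM.

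Of the 9 ERAD genes, 2 rose at 6 h with the ibufenac probe (12.7% of all genes called), 1 with the ibuprofen probe (11.4%), 3 with photocaged ibufenac (3.03%) and 2 with photocaged ibuprofen (0.992%). The 1 call of the ibuprofen probe, EDEM1 (0.27 ± 0.09, adjusted p = 0.0397), was lost in 6 of 6 fits without 1 library. HERPUD1, a membrane partner of the HRD1 ubiquitin ligase, had 61.6, 59.5 and 53.2 CPM at 6 h with the ibufenac probe, 42.2, 40.4 and 39.5 with the ibuprofen probe, 51.8, 45.9 and 37.4 with photocaged ibufenac and 36.8, 33.0 and 39.3 with photocaged ibuprofen, against 35.9, 32.0 and 32.8 in DMSO. The ibufenac probe libraries lay above all others. HERPUD1 rose by 0.79 ± 0.12 with the ibufenac probe (adjusted p = 1.65e-06), which held without any 1 library, and by 0.43 ± 0.12 with photocaged ibufenac (adjusted p = 0.0269), which was lost without DMSO replicate 2 or 3 or photocaged ibufenac replicate 1 or 2 (adjusted p from 0.0876 to 0.284).

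SELENOS and SELENOK, selenoproteins of the ER membrane that take part in ERAD, rose with the photocaged forms. SELENOS had 75.1, 75.5 and 66.1 CPM at 6 h with photocaged ibufenac and 67.2, 73.7 and 67.8 with photocaged ibuprofen, against 55.3, 51.3 and 51.5 in DMSO, with no overlap (0.45 ± 0.09, adjusted p = 0.00109, and 0.40 ± 0.09, adjusted p = 0.0168). The second call was lost without DMSO replicate 2 or 3 or photocaged ibuprofen replicate 2 (adjusted p from 0.0857 to 0.11). Over the 3 times SELENOS rose in all 4 probe and photocaged arms, by 0.26 with each ibufenac form, 0.25 with photocaged ibuprofen and 0.16 with the ibuprofen probe; the last was lost in 11 of 18 fits without 1 library. SELENOK rose by 0.26 ± 0.05 with photocaged ibufenac and 0.22 ± 0.05 with photocaged ibuprofen over the times, and both calls were lost when GC and length trends were removed (adjusted p = 0.069 and 0.175).

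EDEM1, which hands glycoproteins to ERAD, rose with the ibufenac probe by 0.19 ± 0.05 over the times (adjusted p = 0.00675). SEL1L, the adaptor of HRD1, rose with the ibufenac probe (0.17 ± 0.04) and photocaged ibufenac (0.13 ± 0.04), and DERL2, a membrane protein of the exit channel, with photocaged ibufenac (0.16 ± 0.04, adjusted p = 0.0106). With photocaged ibufenac SEL1L was lost in 4 of 18 fits without 1 library, without the 18 h samples (0.23), without the low-count filter (0.182), with GC and length trends removed (0.0899) and with only the 2 arms fitted (0.0669). DERL2 was lost without the 18 h samples (0.11, adjusted p = 0.342) and without the low-count filter (0.126). SYVN1, which is HRD1 itself, the lectin OS9 and DERL1 were called in no arm over the averaged times.

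Of the sensors and their proteases, ATF6 rose over the averaged times with the ibufenac probe (0.29 ± 0.05, adjusted p = 1.16e-05), photocaged ibufenac (0.19 ± 0.05, adjusted p = 0.00841) and the ibuprofen probe (0.18 ± 0.05, adjusted p = 0.0119; 0.0503 with GC and length trends removed). Without the 18 h samples both of the last changes were 0.11 and neither was called (adjusted p = 0.269 and 0.297), and the call of photocaged ibufenac was also lost with only the 2 arms fitted (0.0562). At 6 h ATF6 had 159, 142 and 148 CPM with the ibufenac probe and 150, 150 and 134 with the ibuprofen probe, against 125, 113 and 118 in DMSO, with no overlap (0.33 ± 0.08 and 0.29 ± 0.08). The ibuprofen probe call at 6 h was lost without DMSO replicate 2 or 3 or ibuprofen probe replicate 1 or 2, and when GC and length trends were removed (0.17, adjusted p = 0.152). ERN1 had 45.5, 42.2 and 36.4 CPM with the ibufenac probe at 6 h, against 29.6, 25.8 and 31.6, and rose by 0.51 ± 0.14 (adjusted p = 0.00968; 0.0711 without DMSO replicate 2 and 0.058 without ibufenac probe replicate 1).

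MBTPS2 rose in all 4 probe and photocaged arms over the times, by 0.31 ± 0.07, 0.23 ± 0.07, 0.23 ± 0.07 and 0.24 ± 0.07 with the ibufenac probe, ibuprofen probe, photocaged ibufenac and photocaged ibuprofen. Only the first held without any 1 library; the others were lost in 12, 11 and 15 of 18 such fits and without the 18 h samples (adjusted p = 0.286, 0.165 and 0.472). MBTPS1, WFS1, a membrane protein of the ER whose loss causes Wolfram syndrome, and the luminal proteins CRELD1 and CRELD2 were called in no arm over the averaged times. CRELD2 had 19.4, 14.6 and 16.2 CPM at 18 h with the ibufenac probe, 11.9, 15.1 and 15.3 with the ibuprofen probe, 13.3, 17.7 and 15.7 with photocaged ibufenac and 15, 15.5 and 12.4 with photocaged ibuprofen, against 21.7, 24.3 and 16.9 in DMSO. It fell by 0.57 with the ibuprofen probe (SE 0.15, adjusted p = 0.0362) and by 0.55 with photocaged ibuprofen (SE 0.15, adjusted p = 0.0402). The first call was lost without DMSO replicate 1 or 2 or ibuprofen probe replicate 1 or 2, and the second without DMSO replicate 1 or 2 or any 1 of the photocaged ibuprofen libraries.

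At 12 h fewer members were called. With the ibufenac probe 8 rose (4.51% of all genes): SEC24D (0.69 ± 0.14), MBTPS2 (0.51), HSPA5 (0.47), MANF (0.45 ± 0.09), EDEM1 (0.34), SSR3 (0.33 ± 0.06), PDIA4 (0.26) and SSR2 (0.26). SEC24D had 32.5, 26.9 and 32.8 CPM with the ibufenac probe, against 18.1, 20.1 and 19.2 in DMSO. HSPA5 had 204, 141 and 120 CPM, against 113, 104 and 118, so that 1 library was far above the others; without it the adjusted p was 0.449. The count of 8 became 4 without DMSO replicate 1 or 2 or ibufenac probe replicate 1, and 5 without DMSO replicate 3, while SEC24D, MANF and SSR3 held in every such fit. With photocaged ibufenac PDIA4 and SSR3 rose (0.28 and 0.26; 1.58% of all genes), and neither was called when 1 of 5 of the 6 libraries was left out, the exception being DMSO replicate 3. With the ibuprofen probe DNAJB11 fell by 0.32 (SE 0.09; 1.97% of all genes), which was lost without any 1 library. With photocaged ibuprofen edgeR and DESeq2 each called 0 of 39 (7 at an unadjusted p under 0.05; 0.677% of all genes).

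At 18 h, 6 members rose with the ibufenac probe (2.69% of all genes): ATF6 (0.36), SELENOS (0.32), SSR3 (0.31), HSP90B1 (0.29), PDIA3 (0.25) and CANX (0.20). With photocaged ibufenac ATF6 (0.33), SSR3 (0.27), DERL2 (0.26) and CANX (0.25) rose (2.86%). With the ibuprofen probe ATF6 rose by 0.32 and CRELD2 fell (1.78%), and with photocaged ibuprofen CRELD2 fell (2.21%). ATF6 had 105, 111 and 110 CPM with the ibufenac probe, 111, 108 and 96.1 with the ibuprofen probe and 111, 109 and 97.9 with photocaged ibufenac, against 86.2, 98.3 and 68.8 in DMSO, where replicate 3 was low; without it ATF6 was not called in these 3 comparisons (adjusted p = 0.145, 0.203 and 0.182). The count of 6 for the ibufenac probe became 1 without DMSO replicate 1 or 3 and 2 without any 1 of the probe libraries. The count of 4 for photocaged ibufenac became 1 without DMSO replicate 3, 0 without photocaged ibufenac replicate 1 and 2 without its replicate 2. The count of 2 for the ibuprofen probe became 0 without DMSO replicate 1 or ibuprofen probe replicate 1 or 2, and 1 without DMSO replicate 2 or 3. When GC and length trends were removed, 2 of the 6 calls of the ibufenac probe and none of the 4 of photocaged ibufenac were left.

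The difference from DMSO at 18 h minus that at 6 h was tested directly. With the ibufenac probe it was negative for DNAJB9 (-1.08 ± 0.20, adjusted p = 0.000198), FICD (-1.13 ± 0.32, adjusted p = 0.0181) and HERPUD1 (-0.87 ± 0.16, adjusted p = 0.000265), and positive for PDIA3 (0.47 ± 0.10, adjusted p = 0.00186), HSP90B1 (0.37), PDIA6 (0.32) and SSR3 (0.28); 7.98% of all genes were called. DNAJB9 had 12.0, 13.3 and 11 CPM at 18 h with the ibufenac probe, against 8.56, 12.6 and 10.8 in DMSO, which overlapped, unlike at 6 h. HERPUD1 had 39.6, 26.4 and 36.5 CPM, against 34.5, 39.2 and 34.7. Only DNAJB9, HERPUD1 and PDIA3 held without any 1 library; FICD was lost without DMSO 18 h replicate 2 (0.0586), and the count of 7 became 4 without ibufenac probe replicate 3 of 6 h or of 18 h and 9 without DMSO 18 h replicate 3. With GC and length trends removed, PDIA6 (0.15), SSR3 (0.10) and HSP90B1 (0.19) were no longer called.

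With photocaged ibufenac the same difference was negative for SEC24D (-0.83 ± 0.20), MANF (-0.66 ± 0.13, adjusted p = 0.00592), SSR2 (-0.50), PDIA4 (-0.49) and SEC61A1 (-0.42) and positive for none (0.636% of all genes). MANF had 44.7, 52.4 and 43.0 CPM at 18 h, against 50.4, 48.1 and 53.3 in DMSO, and was the 1 call that held in every fit. The count of 5 became 3 without DMSO 6 h replicate 1 or 3, DMSO 18 h replicate 1 or 3, photocaged ibufenac 6 h replicate 1 or photocaged ibufenac 18 h replicate 2, and 2 without photocaged ibufenac 18 h replicate 1. With photocaged ibuprofen it was negative for MANF (-0.67 ± 0.13) and PDIA4 (-0.50 ± 0.10; 0.0568% of all genes). Neither was called without DMSO 6 h replicate 2, photocaged ibuprofen 6 h replicate 1 or 2 or photocaged ibuprofen 18 h replicate 3, 1 was called without DMSO 6 h replicate 1, and 3 members were called without DMSO 18 h replicate 1. With the ibuprofen probe 0 of 39 were called by edgeR and by DESeq2 (3 at an unadjusted p under 0.05; 0.0362% of all genes).

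Ibufenac and ibuprofen were compared directly at matched form and time. The drugs differ by the methyl group named above. No amounts of drug or metabolite in the cells were at hand, so these cannot be told apart from that difference in structure. In the probe form, averaged over the times, 5 of 39 genes were higher with ibufenac and none lower (2.82% of all genes): DNAJB9 by 0.45 (95% interval 0.29 to 0.62, adjusted p = 0.000268), HSPA5 by 0.36 (0.21 to 0.52, adjusted p = 0.00401), SEC24D by 0.35 (0.19 to 0.52, adjusted p = 0.00761), MANF by 0.20 (adjusted p = 0.0291) and PDIA4 by 0.17 (adjusted p = 0.0147). The first 3 held without any 1 library; MANF was lost in 9 of 18 such fits, and MANF and PDIA4 were both lost without ibufenac probe 12 h replicate 3, which left 3; PDIA4 was also lost without the 18 h samples (0.0697). The median difference over the 39 was 0.10, against -0.01 over all genes, and 33 of the 39 were positive. How many of all genes were positive was not counted. With GC and length trends removed 14 of 39 were higher.

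**Figure D5:**
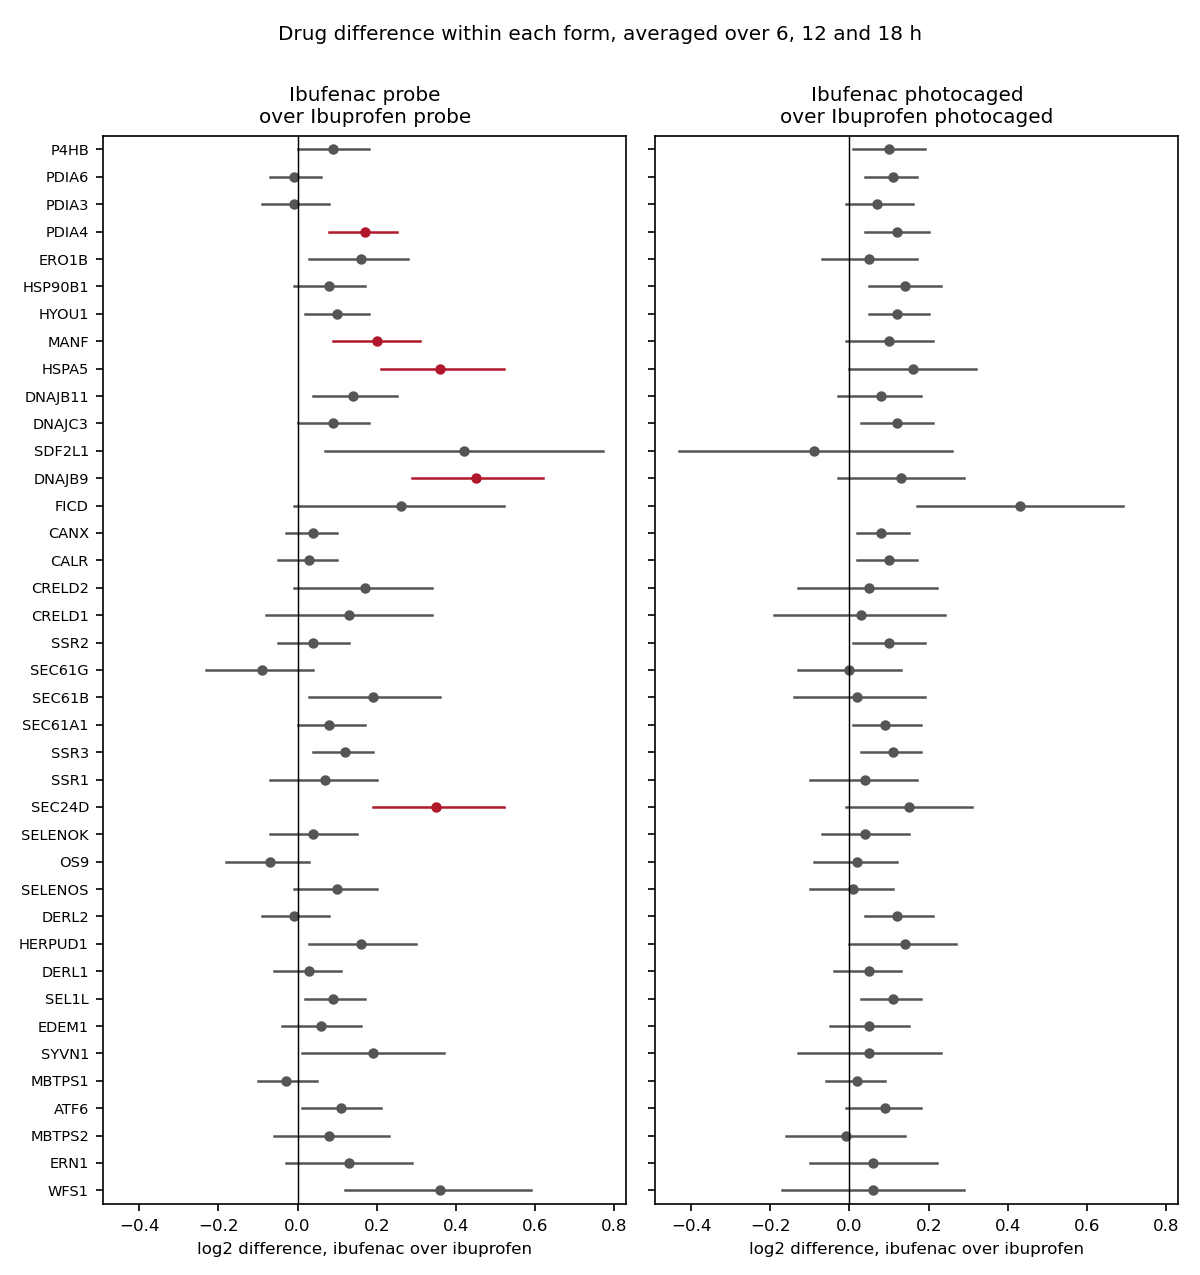
Log2 ratio of ibufenac over ibuprofen, averaged over 6, 12 and 18 h, for each of the 39 genes (rows), with 95% intervals; the probe form is on the left and the photocaged form on the right, and red marks an adjusted p under 0.05. DNAJB9, HSPA5 and SEC24D lie between 0.35 and 0.45 in the probe form, and no gene is red in the photocaged form.

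At 6 h the probe forms differed in 12 of 39 members (30.8%), a share not far above the 23.6% called over all genes. Higher with ibufenac were SDF2L1 (1.14 ± 0.31), DNAJB9 (1.04 ± 0.14), WFS1 (0.82 ± 0.20), FICD (0.79 ± 0.22), HSPA5 (0.54 ± 0.14), HERPUD1 (0.51 ± 0.11), SEC61B (0.48), CRELD2 (0.43) and P4HB (0.23), and lower were PDIA3 (-0.31 ± 0.07), PDIA6 (-0.20) and CANX (-0.18). WFS1 had 12.6, 16.8 and 16.8 CPM with the ibufenac probe and 7.22, 8.44 and 10.5 with the ibuprofen probe, without overlap. DNAJB9, HSPA5, HERPUD1 and FICD kept their calls when GC and length trends were removed. SDF2L1 (0.33, adjusted p = 0.461), WFS1 (0.41, adjusted p = 0.0713), CRELD2 (0.35, adjusted p = 0.0773) and PDIA3 (-0.12, adjusted p = 0.252) did not, and P4HB (-0.11) and CANX (0.01) changed sign without a call. The count of 12 became 7 without ibuprofen probe replicate 1; DNAJB9, HSPA5, HERPUD1, WFS1, SDF2L1 and PDIA3 held in every fit without 1 library.

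At 12 h, 6 members were higher with the ibufenac probe than with the ibuprofen probe (1.92% of all genes): SEC24D (0.82 ± 0.14, adjusted p = 0.000627), MANF (0.38), SSR3 (0.37 ± 0.06, adjusted p = 0.000627), DNAJB11 (0.31), DNAJC3 (0.29) and HYOU1 (0.26). SEC24D had 32.5, 26.9 and 32.8 CPM with the ibufenac probe and 15.8, 18.6 and 17.9 with the ibuprofen probe. SSR3 had 212, 237 and 211 CPM, against 179, 164 and 167. Neither gene's groups overlapped, and these 2 calls held without any 1 library, whereas the count became 3 without ibuprofen probe replicate 1 or ibufenac probe replicate 1 2 without ibuprofen probe replicate 2 or 3 or ibufenac probe replicate 2, and 9 without ibufenac probe replicate 3. At 18 h edgeR and DESeq2 each called 0 of 39 (9 at an unadjusted p under 0.05; 0.0% of all genes). The 95% intervals at 18 h were -0.16 to 0.40 for HSPA5, -0.31 to 0.26 for DNAJB9 and -0.13 to 0.44 for SEC24D. The 6 h estimates of HSPA5 and DNAJB9 lay above these intervals but have an error of their own. Whether the drug difference changed between 6 and 18 h was not tested.

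In the photocaged form the averaged difference between ibufenac and ibuprofen was called for 0 of 39 members by edgeR and by DESeq2 (15 at an unadjusted p under 0.05; 0.0362% of all genes). The difference was positive in 36 of 39 members, with a median of 0.08 against 0.0 over all genes. How many of all genes were positive was not counted, and the 39 genes are not independent replicates. The smallest p-values belonged to FICD (0.43, 95% interval 0.17 to 0.69, adjusted p = 0.547), HYOU1 (0.12, 0.05 to 0.20, adjusted p = 0.558) and PDIA6 (0.11, 0.04 to 0.17, adjusted p = 0.664). FICD had 12.0, 10.2 and 7.78 CPM at 6 h with photocaged ibufenac and 4.80, 7.51 and 7.32 with photocaged ibuprofen. HYOU1 had 278, 263 and 268 CPM, against 233, 240 and 259, and PDIA6 had 324, 295 and 292, against 288, 273 and 285. The 3 genes did not overlap between the drugs at 6 h. They were picked by the smallest p from these same libraries, so their separation is no further support for a difference. How many of all genes lacked overlap was not counted. A missing call does not show that the drugs acted alike: the interval for HSPA5 (0.16) ran from -0.00 to 0.32 and that for SEC24D (0.15) from -0.01 to 0.31. Whether the drug difference itself differed between the probe and photocaged forms was not tested.

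For the boluses, the averaged difference between ibufenac and ibuprofen was called for 0 of 39 (6 at an unadjusted p under 0.05; DESeq2 0; 0.0% of all genes), with MANF (-0.21, 95% interval -0.32 to -0.10), HSP90B1 (-0.14, -0.23 to -0.05) and SELENOS (-0.12, -0.23 to -0.02) having the smallest p-values. At 6 h MANF (-0.40 ± 0.10), PDIA6 (-0.24 ± 0.06) and CANX (-0.21 ± 0.06) were lower with the ibufenac bolus (2.3% of all genes). MANF had 45.9, 40.6 and 39.0 CPM with the ibufenac bolus and 59.0, 54.3 and 52.3 with the ibuprofen bolus. HSP90B1 had 505, 474 and 536, against 551, 578 and 596, and SELENOS had 53.7, 49.4 and 43.3, against 59.8, 56.2 and 60.5. The count of 3 became 0 without ibuprofen bolus replicate 1 or 2 or ibufenac bolus replicate 3, and 7 without ibufenac bolus replicate 1.

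The 2 forms of a drug were also compared. The labels do not say how they differ, so a difference cannot be assigned to a property of either. With ibufenac at 6 h, 12 members were lower and 2 higher in the probe than in the photocaged form (7.38% of all genes), with a median of -0.16 against -0.03 over all genes. DNAJB9 (0.52 ± 0.14) and HERPUD1 (0.37 ± 0.11) were higher in the probe form. Lower were SSR1 (-0.47), SEC61G (-0.39), MANF (-0.36), SSR2 (-0.36), HYOU1 (-0.35 ± 0.07, adjusted p = 0.000501), PDIA3 (-0.33), DNAJB11 (-0.33), PDIA6 (-0.32 ± 0.06, adjusted p = 0.000256), SSR3 (-0.32 ± 0.06, adjusted p = 0.00127), HSP90B1 (-0.28), CALR (-0.26) and CANX (-0.24). PDIA6 had 242, 254 and 232 CPM with the ibufenac probe and 324, 295 and 292 with photocaged ibufenac. HYOU1 had 212, 205 and 220, against 278, 263 and 268, and PDIA3 had 177, 162 and 178, against 241, 209 and 202. None of the 3 overlapped. Each was called from these same libraries, so the separation is no further support for a difference. How many of all genes lacked overlap was not counted.

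That count depended on 1 library: without photocaged ibufenac replicate 1, which held the highest value of CANX, CALR, MANF and SSR2, 4 members were called, without ibufenac probe replicate 2, 9 were called, and without photocaged ibufenac replicate 3, 17. PDIA6, HYOU1 and SSR3 held without any 1 library, but PDIA6 (-0.17, adjusted p = 0.0756) and SSR3 (-0.15, adjusted p = 0.0898) were lost when GC and length trends were removed, which left 7 calls. At 12 h EDEM1 was higher with the ibufenac probe, at 97.9, 78.1 and 86.2 CPM, against 63.1, 65.3 and 62.1 with photocaged ibufenac (0.46 ± 0.09, adjusted p = 0.00368; 1.93% of all genes); without ibufenac probe replicate 3, 5 members were called.

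Over the 3 times DERL2 alone differed between the ibufenac forms (-0.16 ± 0.04, adjusted p = 0.023; 0.224 without the 18 h samples; 2.68% of all genes). At 6 h DERL2 had 60.0, 61.5 and 61.5 CPM with the probe and 76.2, 71.2 and 63.5 with the photocaged form. The count was 0 without photocaged ibufenac 6 h replicate 1, photocaged ibufenac 12 h replicate 3, ibufenac probe 12 h replicate 3 or ibufenac probe 18 h replicate 1, 3 without photocaged ibufenac 6 h replicate 3, and 2 without ibufenac probe 12 h replicate 2. For ibuprofen 0 of 39 were called over the times by edgeR and by DESeq2 (9 at an unadjusted p under 0.05; 0.0982% of all genes). DNAJB11 (-0.18, 95% interval -0.28 to -0.08, adjusted p = 0.149), EDEM1 (0.15, adjusted p = 0.25) and MBTPS1 (0.10, adjusted p = 0.287) had the smallest p-values. At 12 h DNAJB11 had 35.6, 35.4 and 38.8 CPM with the ibuprofen probe and 46.9, 46.8 and 41.3 with photocaged ibuprofen. EDEM1 had 67.6, 74.6 and 76.5 against 61.7, 58.8 and 62.5, and MBTPS1 112, 113 and 113 against 108, 104 and 107. These did not overlap at 12 h, a time picked after the values were seen. The 2 forms overlapped for DNAJB11 at 6 and 18 h, for EDEM1 at 18 h and for MBTPS1 at 6 h. How many of all genes lacked overlap was not counted.

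The boluses moved few members. Averaged over the times edgeR and DESeq2 called 0 of 39 with the ibufenac bolus (5 at an unadjusted p under 0.05; 0.0103% of all genes) and 0 with the ibuprofen bolus (8 at an unadjusted p under 0.05; 0.0258%). At 6 h the ibufenac bolus gave 0 calls (DESeq2 0, 0.0258% of all genes) and the ibuprofen bolus 0 (DESeq2 0, 0.0%). An unadjusted p under 0.05 in edgeR was found for 6 and 4 members, and for 2019 and 2134 of all genes. At 12 h the ibufenac bolus gave 0 (DESeq2 0, 0.0%) and the ibuprofen bolus 0 (DESeq2 0, 0.0103%). Here 3 and 7 members, and 695 and 1111 of all genes, had an unadjusted p under 0.05 in edgeR. HSPA5 at 6 h had 143, 137 and 252 CPM with the ibufenac bolus and 144, 150 and 164 with the ibuprofen bolus, against 146, 134 and 155 in DMSO, so the bolus libraries other than the one that stood apart lay between 137 and 164 CPM. DNAJB9 had 10.8, 10.8 and 8.26 and 13.6, 12.2 and 15.8 CPM, against 10.2, 10.0 and 10.1.

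At 18 h the ibufenac bolus had ATF6 higher (0.46 ± 0.08, adjusted p = 0.00122), CANX higher (0.18 ± 0.06) and CRELD2 lower (-0.60 ± 0.15, adjusted p = 0.0171; 5.03% of all genes), and the ibuprofen bolus had ATF6 higher (0.39 ± 0.08, adjusted p = 0.0433; 0.0723%). ATF6 had 110, 116 and 122 CPM with the ibufenac bolus and 117, 99.5 and 116 with the ibuprofen bolus, against the same 3 DMSO libraries as above. CANX was lost in 5 of 6 fits without 1 library, with GC and length trends removed (0.05, adjusted p = 0.65), without the low-count filter (0.135) and with only the 2 arms fitted (0.0817). The count of 3 became 1 without ibufenac bolus replicate 3 or DMSO replicate 2. The ATF6 call of the ibuprofen bolus was lost without its replicate 1 or 3 or DMSO replicate 3. The ibufenac bolus count at 6 h was 1 without its replicate 1, the ibuprofen bolus count at 12 h was 4 without its replicate 1, and its averaged count was 1 without that library or DMSO 18 h replicate 2.

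Regulators of the ER stress response outside the 39 genes were followed as a list of 13. At 6 h 8 rose and 1 fell with the ibufenac probe (12.7% of all genes called), 3 rose with the ibuprofen probe (11.4%), 5 rose with photocaged ibufenac (3.03%) and 2 rose with photocaged ibuprofen (0.992%). XBP1, which encodes the transcription factor that IRE1 switches on, rose by 1.13 ± 0.06 with the ibufenac probe, 0.46 ± 0.06 with the ibuprofen probe, 0.79 ± 0.06 with photocaged ibufenac and 0.53 ± 0.06 with photocaged ibuprofen. The gene counts do not separate its spliced from its unspliced form. DDIT3 (CHOP), a pro-death factor downstream of ATF4, rose with the ibufenac probe (1.06 ± 0.12, adjusted p = 5.98e-09), and gave 0.07 (adjusted p = 0.782) with the ibuprofen probe, 0.36 (adjusted p = 0.0905) with photocaged ibufenac and 0.26 (adjusted p = 0.406) with photocaged ibuprofen. The drug difference of DDIT3 in the probe form at 6 h was 0.98 ± 0.12 (adjusted p = 1.56e-07). TMBIM6, an ER membrane protein that opposes cell death, fell by 0.26 with the ibufenac probe (SE 0.06, adjusted p = 0.00157).

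A wider list of 78 other ER genes, of glycosylation, signal peptide cleavage, translocation, ERAD and export, was set beside them. At 6 h 10 rose and 0 fell with photocaged ibufenac (3.03% of all genes called), 6 rose and 0 fell with photocaged ibuprofen (0.992%), 5 rose and 9 fell with the ibufenac probe (12.7%) and 9 rose and 7 fell with the ibuprofen probe (11.4%). On average over time 16 rose and 1 fell with photocaged ibufenac (7.49%), 14 rose and 5 fell with the ibufenac probe (13.2%), 6 rose and 2 fell with photocaged ibuprofen (4.28%) and 8 rose and 3 fell with the ibuprofen probe (8.43%). DNAJC10 (ERdj5), a J-domain disulfide reductase, rose over the times in both probe and both photocaged arms. The change was 0.31 ± 0.04 with photocaged ibufenac (adjusted p = 3e-07) and 0.25 ± 0.04 with the ibufenac probe (adjusted p = 7.56e-06). It was 0.22 ± 0.04 with photocaged ibuprofen (adjusted p = 0.00031) and 0.16 ± 0.04 with the ibuprofen probe (adjusted p = 0.00645). The medians of the 78 at 6 h were 0.09 with photocaged ibufenac and 0.00 with the ibufenac probe.

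Members with and without an exact match to the promoter elements in the window searched both rose. A member without a match may carry an element with other letters or in another promoter, which was not searched. With photocaged ibufenac at 6 h, 5 of the 10 genes with an ERSE or ERSE-II rose (HSPA5, HYOU1, HERPUD1, CANX and CALR) and 10 of the 26 without one rose, with medians of 0.32 and 0.23. Of all genes 3.03% were called in that comparison. With the ibufenac probe at 6 h, 3 of 10 with an element rose (HSPA5, FICD and HERPUD1), and 5 of 26 without one rose and 2 fell, with medians of 0.02 and 0.17. There 12.7% of all genes were called. DNAJB9, which had the largest rise against DMSO at any single time, has CCACG in its window and none of the longer elements.

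Fold changes of the 39 genes also varied with the GC content of their exons, by arm and time. Spearman's rho across the 39 genes, which are not independent replicates, was 0.05, -0.18 and -0.42 at 6, 12 and 18 h with the ibufenac probe and -0.44, 0.38 and -0.58 with the ibuprofen probe. It was -0.26, 0.24 and -0.65 with photocaged ibufenac and -0.34, 0.39 and -0.69 with photocaged ibuprofen, and 0.47, -0.51 and 0.32 for ibufenac over ibuprofen in the probe form. The part of GC content in the results was tested only through the fits with GC and length trends removed, in which the 6 h rises of DNAJB9 (1.34), HERPUD1 (0.88), HSPA5 (0.72) and SEC24D (0.70) with the ibufenac probe were at least as large as without the correction. In the same comparison PDIA3, PDIA6 and SEC61G lost their calls, and of the 176 member calls followed over all comparisons 63 were lost and 2 changed sign with these trends removed.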

How the data were processed

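Total RNA of 63 HEK293T libraries was depleted of ribosomal RNA and sequenced, per the labels' protocols; the sources used here do not name the aligner, counting program, genome build or strand setting. The authors deposited expected counts and FPKM per gene. Of the deposited expected counts of 1 or more, 22.6% were not whole, and all were rounded before testing. Deposited FPKM served for levels between genes.

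Differences were tested with edgeR 4.0.16 (R 4.3.3) by the quasi-likelihood test on all 21 groups, with TMM factors of 0.908 to 1.11 and filterByExpr at a minimum count of 10, which left 19352 of 58336 genes (42 residual and 8.2 prior degrees of freedom). P-values were adjusted by Benjamini-Hochberg within each of 50 comparisons. CPM are TMM-normalised. Intervals are 95% by the t quantile. GC content and exon length came from GENCODE v29 and covered 99.8% of genes; gene names came from the current table for 57754 identifiers. Alternatives were RLE factors, DESeq2 1.42.0, no low-count filter, a replicate block, removal of trends with GC content and length (splines with 5 degrees of freedom), a fit of the 2 arms alone, averages without the 18 h samples, and each library left out, with the dispersion trend held at that of all libraries. The procedure was tested on simulated data. No 2 of the 63 replicate pairs agreed within sampling noise (chi-square per gene at least 5.48). Samples were grouped by their titles.

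The members, the lists of other genes and the alternatives were chosen with earlier results of these data known. Values per library are given, in some arms and times, for HSPA5, HSP90B1, CALR, PDIA4, SEC61A1, ERN1, HERPUD1, DNAJB9, SDF2L1 and CRELD2. They are also given for most of the 3 members with the smallest p in each averaged comparison other than a bolus against DMSO. Of these MBTPS2 is left out, and SELENOS and SSR3 are shown in some arms only. Other genes were chosen after their values were seen. Where libraries are said not to overlap, this was read from the same values as the calls and is no further support. How many of all genes lacked overlap was not counted in any comparison. Promoters are RefSeq windows of GRCh38.p14. The last residues of the proteins were not analysed here.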

Additional observations from a re-analysis of the deposited data

Results flagged for a closer look

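The difference from DMSO changed between 6 h and 18 h for 14 combinations of gene and arm, by a test of that change itself (edgeR, adjusted p under 0.05; values are the log2 change at 18 h minus that at 6 h). With the ibufenac probe it was -1.08 for DNAJB9, -1.13 for FICD, -0.87 for HERPUD1, 0.47 for PDIA3, 0.37 for HSP90B1, 0.32 for PDIA6 and 0.28 for SSR3. With photocaged ibufenac it was -0.83 for SEC24D, -0.66 for MANF, -0.50 for SSR2, -0.49 for PDIA4 and -0.42 for SEC61A1. With photocaged ibuprofen it was -0.67 for MANF and -0.50 for PDIA4. The 18 h DMSO libraries enter each of these values and correlated less with each other than most groups did; their part in the values was not tested beyond leaving out each library.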

How the results depend on the processing

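Of 176 member calls followed, 1112 values under alternatives other than leaving out a library gave 935 with the same call, 175 without it and 2 with the opposite sign (CANX 0.01 and P4HB -0.11, ibufenac probe over ibuprofen probe at 6 h, GC and length trends removed). With GC and length trends removed, counts of members called against DMSO became 2 for the ibufenac probe at 18 h; 1, 2, 0 and 1 for the ibuprofen probe averaged and at 6, 12 and 18 h; 1 and 0 for photocaged ibufenac at 12 and 18 h; and 3 and 4 for photocaged ibuprofen averaged and at 18 h. They became 14 for the averaged probe drug pair, 1 for the bolus pair at 6 h, and 2 and 7 for the ibufenac forms averaged and at 6 h. Of all genes, 587, 1735, 1116, 514, 316, 461, 515, 1235 and 628 were called in the order of the counts against DMSO. For the pairs 705, 47, 665 and 1458 of all genes were called. Fitting only the 2 arms compared gave 5 and 2 for the ibufenac probe at 12 and 18 h, 11 for the ibuprofen probe at 6 h, 1, 0 and 3 for photocaged ibufenac at 12 h, 18 h and 18 h minus 6 h, 3 for photocaged ibuprofen at 18 h, 1 and 0 for the ibufenac and ibuprofen boluses at 18 h, 0 for the bolus pair at 6 h, and 0 and 2 for the ibufenac forms averaged and at 12 h. In that order 515, 210, 2715, 255, 345, 50, 728, 297, 0, 1, 249 and 337 of all genes were called. Without the low-count filter the counts were 3 for the ibufenac probe at 18 h, 0 for the ibuprofen probe at 12 h, 2 for photocaged ibufenac at 18 h, 4, 1 and 3 for photocaged ibuprofen at 6, 12 and 18 h, 1 for the averaged ibufenac bolus, 1 for the ibuprofen bolus at 6 h, 1 for the probe drug pair at 18 h, and 0 and 5 for the ibufenac forms averaged and at 12 h. The genes called in these fits were 678, 971, 1343, 343, 664, 1375, 194, 977, 201, 549 and 1420. DESeq2 gave 11 for the ibuprofen probe at 6 h, 4 for photocaged ibuprofen at 18 h, 14 for the probe drug pair at 12 h, 7 for the bolus pair at 6 h, and 2 and 4 for the ibufenac forms averaged and at 12 h. RLE factors gave 0 for the ibuprofen bolus at 18 h, with 7 of all genes called. Averages without the 18 h samples gave 0 for the ibuprofen probe, 4 for the bolus pair and 3 for the ibufenac forms, with 742, 647 and 621 genes called. The cause of these moves was not tested.

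Leaving out each library in turn gave, for averaged, 6 h, 12 h, 18 h and 18 h minus 6 h counts against DMSO in that order, 14 to 17, 9 to 12, 4 to 8, 1 to 6 and 4 to 9 for the ibufenac probe; 1 to 6, 1 to 7, 0 to 0, 0 to 2 and 0 to 0 for the ibuprofen probe; 17 to 23, 11 to 21, 0 to 2, 0 to 4 and 2 to 4 for photocaged ibufenac; and 4 to 6, 1 to 5, 0 to 0, 0 to 1 and 0 to 3 for photocaged ibuprofen. The boluses, averaged and at 6, 12 and 18 h, gave 0 to 0, 0 to 1, 0 to 0 and 1 to 3 for ibufenac and 0 to 1, 0 to 0, 0 to 4 and 0 to 1 for ibuprofen. The probe drug pair gave 3 to 6, 7 to 13, 2 to 9 and 0 to 0; the photocaged pair averaged 0 to 0; the bolus pair 0 to 0 averaged and 0 to 7 at 6 h; the ibufenac forms 0 to 3, 4 to 17 and 1 to 5 averaged and at 6 and 12 h; and the ibuprofen forms averaged 0 to 0. Libraries whose loss moved a count by over 1.5 times are named beside that count above.

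Same-numbered libraries of an arm and DMSO showed little common deviation (r from -0.071 to 0.098 over 54 pairs), and 23 of 54 libraries correlated best with their own number. The main fits were therefore left unpaired. The labels do not say whether the numbers mark shared cultures, and these correlations cannot exclude it. With the replicate block the averaged counts were 18, 3, 22 and 4 for the ibufenac probe, ibuprofen probe, photocaged ibufenac and photocaged ibuprofen, 5 for the probe drug pair, and 6 of the 176 calls were lost. The lowest counts, 46 for SDF2L1 and 75 for FICD in 1 library each, limit the precision of these genes.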
